A study of Homo sapiens with 4 samples.

Results

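The genes described here are 60 genes of G2 phase and mitosis, chosen by name from the textbook parts list of cell division. They cover cyclins and kinases of mitotic entry, the spindle checkpoint, the kinetochore, the chromosomal passenger complex, motor proteins, condensin and the machinery of cytokinesis. Earlier results of these data were known when they were chosen. Their shares beside those of all genes therefore describe this list and are not an independent test. Every probe set whose only gene symbol in the platform annotation was one of these names was taken, which gave 122 of 54675 probe sets, and the brightest one (highest mean of the 4 arrays) stood for its gene in counts. All 60 genes passed the filter on dim probe sets and were tested, among 13554 genes tested of 19775 with such a probe set. The cells were U937, an established human lymphoma line that serves in many laboratories as a stand-in for monocyte precursors. Of the 4 samples measured, 2 had received 100 nM shikonin, a naphthoquinone pigment from gromwell root, for 3 h and 2 the solvent dimethyl sulfoxide (DMSO). No time is stated for the solvent controls. Whether the 2 samples of a group were grown separately is not stated, and the p-values below then cover only array-to-array spread, which may be technical. Each sample was read on 1 short-oligonucleotide array, and signals are the authors' linear intensities, which have the same trimmed mean on every array. In bulk RNA, fewer cells in G2 or mitosis and less of a transcript per cell cannot be told apart.

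A cell enters mitosis when CDK1, bound to A-type and B-type cyclins, is switched on by CDC25 phosphatases and by the kinases PLK1 and AURKA. Chromosomes are compacted by condensin and attach to spindle microtubules through kinetochores, and the spindle checkpoint holds back the anaphase-promoting complex until every kinetochore is attached. Most genes of this program are silent in G1 and rise together from late S phase to mitosis, through promoter elements read by MuvB complexes with MYBL2 and FOXM1 (the cell cycle genes homology region, CHR) and by NF-Y (the CCAAT box). Their transcript levels in a population usually vary with the share of dividing cells.

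The arrays were alike in quality. The ratio of 3' over 5' signal was 1.14 to 1.19 for ACTB and 1.05 to 1.13 for GAPDH, with overlapping groups. Of 12 monocytic and myeloid markers, 10 had a single-gene probe set, and all 10 lay above the 40th percentile of every array, with a summed signal of 93088 to 99579.8 in DMSO and 91184 to 98126 after shikonin. The summed signal of the markers of other cell types was 593 to 626 in DMSO and 570.5 to 676 after shikonin for B cells, 134 to 175 in DMSO and 122 to 152 after shikonin for T cells, 119 to 148 in DMSO and 106 to 153 after shikonin for erythroid cells, 20.6 to 66.2 over all arrays for epithelium and 296 to 301 in DMSO and 298 to 366 after shikonin for fibroblasts. In each list the groups overlapped. Some of these other markers also lay above the 40th percentile of every array. They were 2 of 3 with a probe set for B cells, 1 of 4 for T cells, 1 of 2 for erythroid cells and 2 of 3 for fibroblasts. For epithelium it was 0 of 3.

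After shikonin, the mitotic genes were shifted slightly downward. Of the 60 genes, 13 fell and 0 rose at an adjusted p under 0.05 (limma, Benjamini-Hochberg over all probe sets kept), that is 21.7%, against 6.68% lower and 5.05% higher among all genes tested. At an unadjusted p under 0.05, 28 of the 60 were lower and 1 higher, against 14.7% lower and 13.4% higher among all genes tested. The genes that fell were CDK1, the kinase of mitotic entry; TTK and BUB1B of the spindle checkpoint; NDC80, NUF2, CENPE and CENPA of the kinetochore and centromere; the motors KIF23 and KIF14; the centrosome kinase NEK2; and PRC1, ANLN and RACGAP1 of cytokinesis. Their falls were small, from 1.49-fold lower for CENPE to 1.16-fold lower for BUB1B on the log2(signal + pseudocount) scale. Most of the 60 genes were bright: 53 had a mean signal of at least 1000, and 12 of those fell and 0 rose (22.6% lower), against 10.1% lower and 9.63% higher among all genes in that range.

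**Figure D1:**
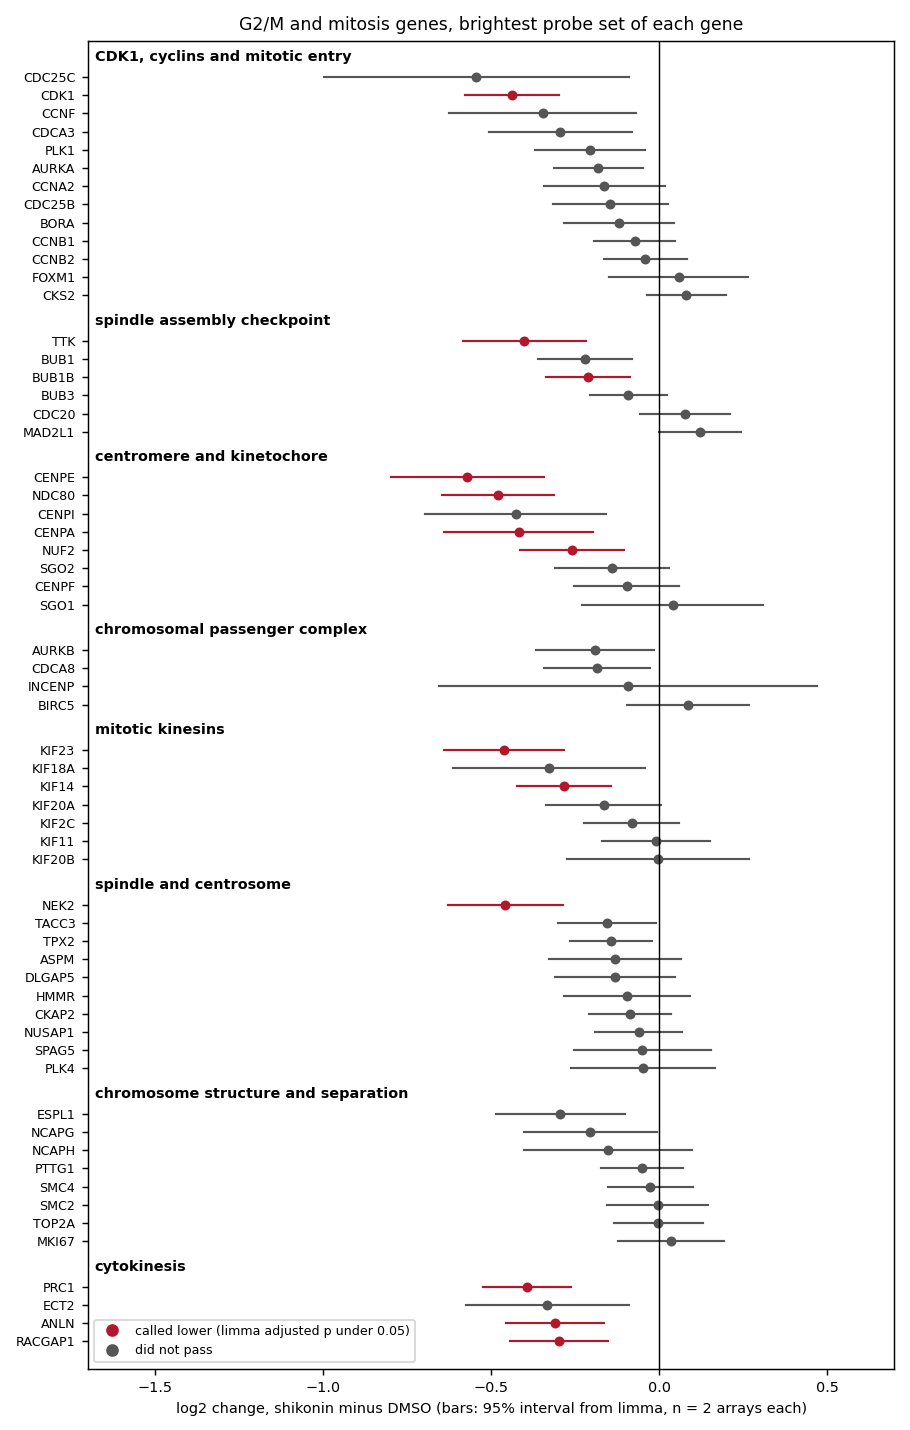
Each row is 1 of the 60 genes, grouped by role; points give the log2 change of the brightest probe set (shikonin minus DMSO) and bars its 95% interval from limma with n = 2 arrays each, red where the gene was called lower. Points left of 0 number 53, and none of the 7 points right of 0 is red.

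The shift also took in genes that did not pass singly. Across the 60 genes the median log2 change was -0.15, with quartiles at -0.30 and -0.051, while over all genes tested it was 0.0033. A value below 0 was found in 53 of 60 (88.3%), against 49.5% of all genes. In 38 of the 60 both shikonin arrays lay below both DMSO arrays (63.3%, against 27.3% of all genes), and in 4 both lay above (28.2% of all genes). On the brightest probe sets the changes ran from -0.57 for CENPE to 0.12 for MAD2L1.

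No single pair of arrays carried this. Taking each shikonin array against each DMSO array in turn, 46 to 51 of the 60 genes were lower, with medians of -0.20 to -0.12, while the median over all genes lay between -0.011 and 0.016. Between the 2 arrays of one group the members moved less: 36 of 60 were lower on DMSO 2 than on DMSO 1 (median -0.037), and 36 of 60 on shikonin 2 than on shikonin 1 (median -0.022). The number of calls did depend on single arrays, with 8, 11, 8 and 7 genes called lower without DMSO 1, DMSO 2, shikonin 1 and shikonin 2, none called higher in these fits, and 8 lower without the filter on dim probe sets, where BUB1B, CENPA, KIF14, NUF2 and RACGAP1 dropped out. With a single variance prior in place of one that follows signal, limma called 0 of the 60 and none of the 13554 genes (smallest adjusted p 0.0764), although 13 of the 60 were lower and 0 higher at an unadjusted p under 0.05.

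**Figure D2:**
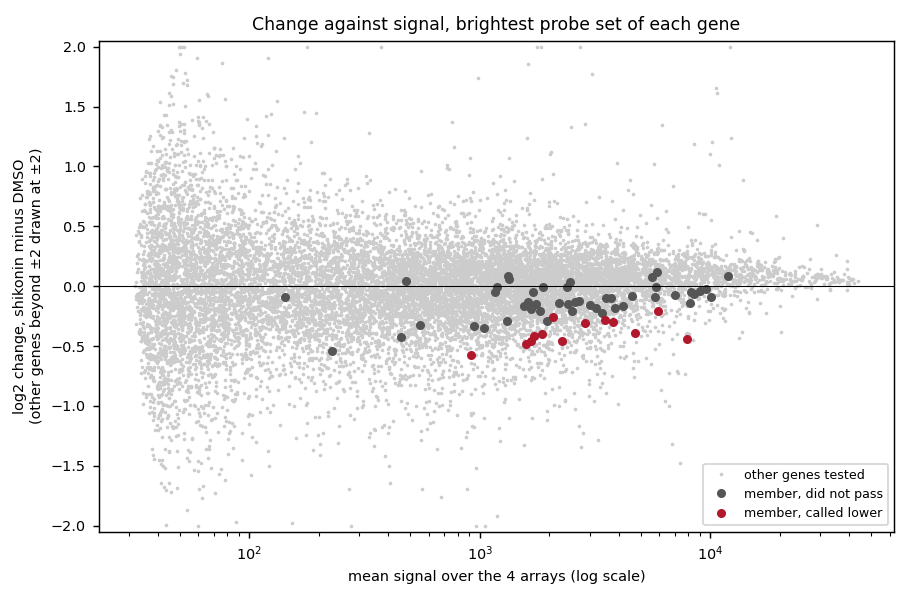
The horizontal axis gives the mean signal over the 4 arrays on a log scale and the vertical axis the log2 change (shikonin minus DMSO) for all 13554 genes tested, grey, with the 60 mitotic genes on top and those called lower in red. The mitotic genes form a band just below 0, mostly at signals above 1000, where 53 of the 60 lie.

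Promoter sequence had no part in the choice of the genes. RefSeq windows of 250 bases before to 50 after an annotated start (GRCh38.p14) were at hand for 53 of the 60 genes. The CHR letters TTTGAA, searched on both strands, occurred in a window of 37 of these (69.8%), against 14.1% of tested genes with a window and 15.2% of all 35116 windows. The letters CCAAT occurred in 40 (75.5%, against 42.7% of tested genes and 34.6% of all windows), and both in 28 (52.8%, against 5.85% and 5.90%). Rarer patterns were also searched on both strands: TTCGAA was in 6 members (11.3%, against 2.24% of tested genes and 1.45% of all windows), and an E2F site (TTTCCCGC, TTTGGCGC, TTTCGCGC or TTTGCCGC) in 3 (5.66%, against 6.47% and 3.31%). Of 52 TTTGAA matches in the members' windows, 24 (46.2%) began within 60 bases before the start, against 17.3% of such matches in all windows.

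The stretch from 120 bases before the start up to the start is shown for 5 genes that fell and, for comparison, 3 that did not pass (CCNB2, PLK1 and CDC20), in gene orientation, 5′ to 3′. Capitals mark TTTGAA and CCAAT on either strand, the reverse strand reading as TTCAAA and ATTGG. All 8 stretches were picked because they hold TTTGAA. Of the called genes not shown, CDK1 and NDC80 have TTTGAA that begins before the start, and 2 have no window. NEK2 and CENPE have no TTTGAA in their windows, and NUF2 and KIF14 have it only after the start.
PRC1: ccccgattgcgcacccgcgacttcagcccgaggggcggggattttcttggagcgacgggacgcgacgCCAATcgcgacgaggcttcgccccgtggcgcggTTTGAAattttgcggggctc
ANLN: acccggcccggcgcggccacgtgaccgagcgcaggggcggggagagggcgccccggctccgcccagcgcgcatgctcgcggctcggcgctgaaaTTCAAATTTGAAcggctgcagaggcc
BUB1B: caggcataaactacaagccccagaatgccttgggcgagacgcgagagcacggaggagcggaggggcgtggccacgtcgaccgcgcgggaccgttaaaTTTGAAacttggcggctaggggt
CENPA: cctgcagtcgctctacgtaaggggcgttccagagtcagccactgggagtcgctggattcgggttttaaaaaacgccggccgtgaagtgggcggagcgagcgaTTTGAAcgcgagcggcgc
KIF23: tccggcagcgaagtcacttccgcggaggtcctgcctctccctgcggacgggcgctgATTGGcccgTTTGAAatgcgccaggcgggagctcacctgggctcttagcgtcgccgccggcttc
CCNB2: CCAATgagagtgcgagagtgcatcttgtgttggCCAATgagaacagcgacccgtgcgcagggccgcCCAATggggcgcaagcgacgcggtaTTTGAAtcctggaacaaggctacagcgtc
PLK1: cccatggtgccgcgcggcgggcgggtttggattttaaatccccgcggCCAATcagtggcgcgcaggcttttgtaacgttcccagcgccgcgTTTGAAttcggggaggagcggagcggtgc
CDC20: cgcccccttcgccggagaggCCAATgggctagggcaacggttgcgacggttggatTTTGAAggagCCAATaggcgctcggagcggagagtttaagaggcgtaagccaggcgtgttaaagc
On GRCh38.p14 these stretches lie at PRC1 chr15:90994536-90994655 (minus strand), ANLN chr7:36389742-36389861 (plus strand), BUB1B chr15:40160949-40161068 (plus strand), CENPA chr2:26785936-26786055 (plus strand), KIF23 chr15:69414229-69414348 (plus strand), CCNB2 chr15:59105026-59105145 (plus strand), PLK1 chr16:23678769-23678888 (plus strand) and CDC20 chr1:43358861-43358980 (plus strand). The TTTGAA match nearest the start begins 20 bases before it in PRC1 and ANLN, 23 in BUB1B, 18 in CENPA, 29 in CCNB2 and PLK1, 55 in KIF23 and 65 in CDC20. Within the stretches shown, CCAAT lies upstream of it in PRC1, KIF23, CCNB2 and PLK1, and on both sides in CDC20. CENPA has CCAAT farther upstream, beginning 130 and 205 bases before the start. Over the 53 genes, TTTGAA was present in 9 of 11 called genes with a window and in 28 of 42 others, and the median log2 change was -0.13 with it and -0.15 without. For CCAAT the same medians were -0.14 and -0.20. A match describes letters and not binding of a factor, and these shares and medians were not tested.

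Among 13 genes of mitotic entry, CDK1 was the one that fell, and none rose. That is 7.69% called lower, near the 6.68% of all genes tested. CDK1, the catalytic subunit that drives entry into mitosis, had signals of 9309.5 and 8854 in DMSO and 6403 and 7009 after shikonin. The groups did not overlap, and the mean was 1.35-fold lower after shikonin (log2 change -0.44, SE 0.062, limma adjusted p = 0.00331). Both other tested probe sets of CDK1 fell as well, with log2 changes of -0.30 and -0.36 (adjusted p 0.019 and 0.0357), and the call on the brightest held without any 1 of the 4 arrays. On the other probe sets it was lost without DMSO 2, shikonin 1 or shikonin 2 (adjusted p 0.0787, 0.0555 and 0.0883) and without DMSO 1 or shikonin 2 (adjusted p 0.133 and 0.163), in the same order. Its cyclin partners stood at smaller values. CCNB1, cyclin B1, had signals of 7119.99 and 7239.9 in DMSO and 6916 and 6737 after shikonin, lower on both shikonin arrays by a small margin (log2 change -0.073, 95% interval -0.19 to 0.047, adjusted p = 0.456). CCNB2, cyclin B2, overlapped between groups (-0.041, interval -0.16 to 0.082). CCNA2, cyclin A2, lay at -0.16 on its brightest probe set and did not pass (adjusted p = 0.253), while its other probe set fell by 0.26 (adjusted p = 0.0345). Whether CDK1 changed more than its cyclins was not tested.

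The other kinases and phosphatases among these 13 genes lay below 0 and did not pass on their brightest probe sets. PLK1, the polo kinase that activates CDC25 and later builds the spindle, had signals of 2590.1 and 2803 in DMSO and 2266 and 2404 after shikonin. The groups were apart, but the change of -0.21 did not pass (adjusted p = 0.114). AURKA, which activates PLK1, was at -0.18 (adjusted p = 0.0906) on its brightest probe set and fell by 0.26 (adjusted p = 0.0434) on another. The phosphatase CDC25C, a dim gene with signals of 292 and 249.7 in DMSO and 156 and 213 after shikonin, had the largest value of this class (log2 change -0.54, SE 0.20, adjusted p = 0.133), and CDC25B lay at -0.15. BORA, the cofactor through which AURKA acts on PLK1, was at -0.12. CCNF, the F-box protein cyclin F, stood at -0.35 and CDCA3, a trigger of WEE1 degradation, at -0.29 (adjusted p 0.12 and 0.0882). Just 2 genes of this class were above 0: FOXM1, the transcription factor of the G2/M program, with signals of 1267 and 1357 in DMSO and 1459 and 1278 after shikonin that overlapped (0.058), and CKS2, a small CDK-binding subunit, whose sign depended on the scaling (0.081, interval -0.036 to 0.20, and -0.0060 with quantile normalization).

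In the spindle assembly checkpoint, 2 of 6 genes fell (33.3%, against 6.68% of all genes tested). TTK, the kinase MPS1 at the head of the checkpoint, had signals of 2229 and 2030.5 in DMSO and 1676 and 1543 after shikonin. Both shikonin arrays were below both controls, 1.32-fold lower on average (log2 change -0.40, SE 0.081, limma adjusted p = 0.0167). BUB1B, the BubR1 subunit of the complex that restrains CDC20, had signals of 6473 and 6269 in DMSO and 5541 and 5461 after shikonin and fell by 0.21 (SE 0.055, adjusted p = 0.0451). The call of TTK was lost without DMSO 1 or shikonin 2 (adjusted p 0.0756 and 0.0754), and that of BUB1B without DMSO 1, DMSO 2, shikonin 1 or shikonin 2 (adjusted p 0.16, 0.0836, 0.139 and 0.177). BUB1, the kinase that docks the checkpoint at kinetochores, had non-overlapping signals of 3713 and 3609 in DMSO and 3197 and 3078 after shikonin. At -0.22 it did not pass (adjusted p = 0.057), while its second probe set fell by 0.30 (adjusted p = 0.0311).

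The other 3 checkpoint genes were not called. MAD2L1, the Mad2 protein that binds CDC20, was higher on both shikonin arrays, with signals of 5687 and 5607 in DMSO and 6127 and 6168 after shikonin, the highest change among the brightest probe sets of the 60 genes (0.12, adjusted p = 0.204). Its 2 other probe sets lay at -0.10 and -0.23, on the other side of 0. CDC20, the activator of the anaphase-promoting complex and the target of the checkpoint, was at 0.076 (interval -0.057 to 0.21). BUB3, the scaffold of BUB1 and BUB1B, was at -0.092, and its 5 other probe sets ran from -0.20 to 0.44 without a call.

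The centromere and kinetochore class had the lowest median of the 8 classes (-0.34). Of its 8 genes 4 fell (50%, against 6.68% of all genes tested). CENPE, the kinesin that carries chromosomes to the spindle equator, had signals of 1153 and 1041 in DMSO and 775 and 695 after shikonin. This was the largest change among the brightest probe sets of the 60 genes, 1.49-fold lower (log2 change -0.57, SE 0.10, limma adjusted p = 0.00935). NDC80 and NUF2 are partners in the complex that grips microtubules. NDC80 had signals of 1868 and 1814 in DMSO and 1299 and 1336 after shikonin, tight within each group and 1.39-fold lower after shikonin (log2 change -0.48, SE 0.074, limma adjusted p = 0.00493). NUF2 had signals of 2310.4 and 2224 in DMSO and 1878 and 1909 after shikonin, apart as well but with a smaller change of -0.26 (SE 0.069). Its adjusted p of 0.0485 sat at the threshold, was 0.0501 when the dim probe sets were filtered by mean signal and not by mean log2 value, and failed without DMSO 1, DMSO 2, shikonin 1 or shikonin 2 (adjusted p 0.172, 0.0932, 0.163 and 0.126).

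CENPA, the histone variant that marks centromeres, had signals of 1789.7 and 2168 in DMSO and 1431 and 1512 after shikonin, and the DMSO arrays themselves were far apart. Its fall was 1.34-fold (log2 change -0.42, SE 0.098, limma adjusted p = 0.0298), read by a probe set of the type that may cross-hybridize, and was lost without DMSO 2 or shikonin 1 (adjusted p 0.129 and 0.0998). CENPI, of the inner kinetochore, had signals of 533 and 514 in DMSO and 398 and 375 after shikonin. These did not overlap, and the change of -0.43 did not pass (adjusted p = 0.057) where its second probe set fell by 0.68 (adjusted p = 0.0489). The shugoshins SGO1 and SGO2 protect cohesion at the centromere. SGO1 overlapped between groups on both probe sets (0.040 on the brighter, -0.38 on the dimmer, adjusted p 0.882 and 0.446), and SGO2 lay at -0.14 on its brightest probe set. The second SGO2 probe set gave 1466 and 1539.6 in DMSO and 969 and 945 after shikonin, log2 change -0.65 (adjusted p = 0.00181). CENPF, a large kinetochore protein of late G2, overlapped (-0.10).

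None of the 4 genes of the chromosomal passenger complex, which corrects faulty attachments and guides cytokinesis, was called by limma. At an unadjusted p under 0.05, 2 of the 4 were lower, against 14.7% of all genes tested. AURKB, its kinase, had signals of 1703 and 1861 in DMSO and 1549 and 1570.3 after shikonin. CDCA8, the Borealin subunit, had signals of 3523 and 3252 in DMSO and 3069 and 2886 after shikonin. Both were lower on both shikonin arrays, by similar amounts (-0.19 and -0.19; adjusted p 0.171 and 0.139). BIRC5, which encodes survivin, was slightly above 0 on all 4 of its probe sets, from 0.086 to 0.24, without a call. INCENP, the scaffold, was the dimmest of the 60 genes and gave little information (-0.093, interval -0.66 to 0.47).

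Of 7 mitotic kinesins, KIF23 and KIF14 fell (28.6%, against 6.68% of all genes tested). KIF23, the motor subunit of centralspindlin, which bundles the central spindle, had signals of 1864 and 1995 in DMSO and 1348 and 1448 after shikonin. That is 1.38-fold lower, without overlap (log2 change -0.46, SE 0.079, limma adjusted p = 0.00804), and the call held without any 1 array. Its other, much dimmer probe set lay at 0.18 and did not pass, so the direction rests on the brighter one, and the mean over both was -0.14 (adjusted p = 0.48). KIF14, a motor of late cytokinesis, had signals of 3927 and 3727 in DMSO and 3116 and 3170.2 after shikonin, 1.22-fold lower (log2 change -0.28, SE 0.062, limma adjusted p = 0.024). The second KIF14 probe set fell alike (-0.33, adjusted p = 0.0243), although the call of the first was lost without DMSO 1, shikonin 1 or shikonin 2 (adjusted p 0.103, 0.0998 and 0.0735) and that of the second without DMSO 1, DMSO 2 or shikonin 2 (adjusted p 0.0751, 0.0632 and 0.121). KIF18A, which damps chromosome movement, was at -0.33 and KIF20A, a motor of the central spindle, at -0.17 (adjusted p 0.15 and 0.221). KIF11, the Eg5 motor that separates the poles, had signals of 1875 and 1900.5 in DMSO and 1919.9 and 1832 after shikonin, with no separation of groups (-0.0097, interval -0.17 to 0.15). KIF2C, a microtubule depolymerase, was at -0.082 on its brightest probe set and fell by 0.25 (adjusted p = 0.0435) on another, and KIF20B stood at -0.0044.

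The spindle and centrosome class held 10 genes, all below 0, of which NEK2 was the one called. That is 10% called lower, near the 6.68% of all genes tested and the 10.1% of those with signals of at least 1000. NEK2, the kinase that splits the centrosomes, had signals of 2651 and 2613 in DMSO and 2024 and 1809 after shikonin, 1.37-fold lower (log2 change -0.46, SE 0.076, limma adjusted p = 0.00695). Its second probe set also fell (-0.45, adjusted p = 0.0164). The call on the brightest held without any 1 array, and that on the second was lost without DMSO 1 or shikonin 1 (adjusted p 0.0813 and 0.0518). TPX2, the activator of AURKA on the spindle, had signals of 8399.6 and 8777 in DMSO and 7634 and 7913 after shikonin, apart but only 1.10-fold lower (adjusted p = 0.142), and TACC3, which stabilizes spindle fibres, was similar (-0.16, adjusted p = 0.179). HMMR, a spindle-associated protein, overlapped between groups on its brightest probe set (-0.10), whereas the other gave 2657 and 2653 in DMSO and 2067 and 1919 after shikonin (log2 change -0.41, adjusted p = 0.00772). The other members of the class, ASPM, DLGAP5, CKAP2, NUSAP1, SPAG5 and PLK4, the last being the kinase of centriole duplication, ran from -0.13 to -0.049.

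Genes of chromosome structure and separation lay nearest to 0. limma called none of 8, and 2 were lower at an unadjusted p under 0.05, against 14.7% of all genes tested. The median of the class, -0.039, was the smallest in size among the 8 classes. TOP2A, the topoisomerase that untangles sister chromatids, had signals of 6035 and 5643 in DMSO and 5807 and 5842 after shikonin, interleaved between groups (-0.0029, interval -0.13 to 0.13). MKI67, the proliferation marker Ki-67, had overlapping signals of 2524 and 2350.1 in DMSO and 2542 and 2451 after shikonin on its brightest probe set. Its 4 probe sets lay between 0.035 and 0.23 without a call. On each of the dimmer ones both shikonin arrays lay above both DMSO arrays. The condensin core genes SMC2 and SMC4 were at -0.0045 and -0.027, with intervals of -0.16 to 0.15 and -0.15 to 0.10. The further condensin subunits NCAPG, with signals of 2112 and 1806 in DMSO and 1712 and 1675 after shikonin (-0.20, adjusted p = 0.192), and NCAPH (-0.15) did not pass. ESPL1, the protease separase, had signals of 1453 and 1448 in DMSO and 1245 and 1119.96 after shikonin, lower without overlap (-0.29, adjusted p = 0.0631), but its second probe set lay at 0.30. PTTG1, the separase inhibitor securin, stood at -0.052 (interval -0.17 to 0.070).

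The cytokinesis genes were the class with the highest share of calls, 3 of 4 (75%, against 6.68% of all genes tested). In all 4 of them both shikonin arrays lay below both controls (100%, against 27.3% of all genes tested). PRC1, the microtubule bundler of the central spindle, had signals of 5253 and 5486 in DMSO and 4069.7 and 4105 after shikonin. Replicates were tight, and the mean was 1.31-fold lower (log2 change -0.39, SE 0.058, limma adjusted p = 0.00402), a call that held without any 1 array. RACGAP1, the partner of KIF23 in centralspindlin, had signals of 4305 and 4021 in DMSO and 3452 and 3316 after shikonin, 1.23-fold lower (log2 change -0.30, SE 0.064, limma adjusted p = 0.0221). ANLN, anillin of the contractile ring, had signals of 3235 and 3084 in DMSO and 2529 and 2561 after shikonin, 1.24-fold lower (log2 change -0.31, SE 0.064, limma adjusted p = 0.0187), with a second probe set at -0.12 that did not pass and a mean over both of -0.22 (adjusted p = 0.0655). Single arrays mattered for the last pair: RACGAP1 was not called without DMSO 1, shikonin 1 or shikonin 2 (adjusted p 0.0983, 0.0541 and 0.102), nor was ANLN without DMSO 1, shikonin 1 or shikonin 2 (adjusted p 0.0815, 0.0767 and 0.0611). ECT2, the exchange factor that RACGAP1 brings to the equator, had signals of 1069 and 1039 in DMSO and 917 and 759.6 after shikonin and did not pass on its brightest probe set (-0.33, adjusted p = 0.0897). A dimmer ECT2 probe set fell by 0.63 (adjusted p = 0.0456).

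**Figure D3:**
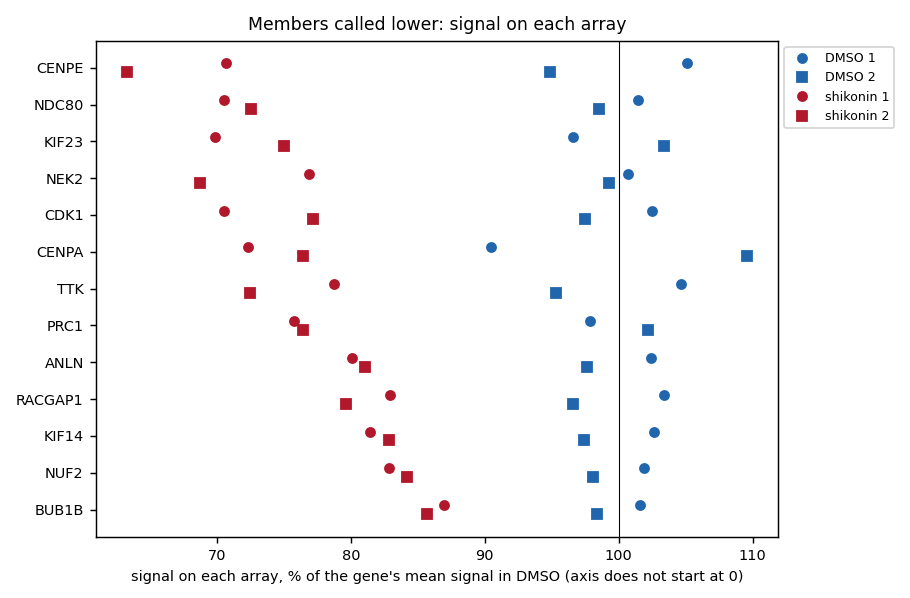
Each row is 1 of the 13 genes called lower, and each point is 1 array, as a percentage of the gene's mean signal in DMSO (blue, DMSO; red, shikonin; circles and squares, arrays 1 and 2 of a group). All red points lie left of all blue points of the same row, and CENPA has the widest gap between its DMSO arrays.

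Precision bounded what could be seen in the 47 genes that did not pass. For 15 of them the 95% interval of the brightest probe set lay wholly within 0.25 of 0 on the log2 scale. That is within 1.19-fold either way. These were CCNB1, CCNB2, CKS2, CDC20, MAD2L1, BUB3, KIF2C, KIF11, CKAP2, NUSAP1, PTTG1, MKI67, SMC2, SMC4 and TOP2A. Falls as large as that of CDK1 (-0.44) were outside these intervals for their brightest probe sets. The intervals of the other 32 genes reached beyond that limit. So did those of dimmer probe sets of some of the 15 genes, among them SMC4, MKI67 and TOP2A. The second probe sets of TOP2A and KIF2C were called lower, at -0.38 (interval -0.54 to -0.22) and -0.25 (interval -0.40 to -0.11). For TOP2A the second was nearly as bright as the first, with mean signals of 5345 and 5832.

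Probe sets of 1 gene did not always give 1 answer. Of 122 probe sets 114 were tested, and 26 were called lower and 0 higher, against 5.28% lower and 3.92% higher over all 32768 probe sets. Several were tested for 34 genes, and 38 of 54 probe sets other than the brightest had its sign. For the called genes, 4 of 6 other probe sets were called lower too. In a further 9 genes, AURKA, BUB1, CCNA2, CENPI, ECT2, HMMR, KIF2C, SGO2 and TOP2A, a second probe set was called lower where the brightest one was not. TOP2A was split between 2 bright probe sets. The second gave 5817 and 6286 in DMSO and 4888 and 4389 after shikonin, log2 change -0.38 (adjusted p = 0.0114), while the brightest lay at -0.0029. With 1 array left out, the second calls of SGO2 and HMMR held in all 4 fits, and that of TOP2A was lost without shikonin 2 (adjusted p 0.0586). The second call of AURKA held without DMSO 1 alone and that of CENPI without DMSO 2 alone. For BUB1, CCNA2, ECT2 and KIF2C it was lost in all 4 fits, with adjusted p of 0.0577 to 0.144, 0.0664 to 0.169, 0.0645 to 0.167 and 0.0914 to 0.182. For AURKA and CENPI adjusted p ran over 0.0359 to 0.19 and 0.0276 to 0.248. Which part of a transcript each probe set reads was not examined.

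**Figure D4:**
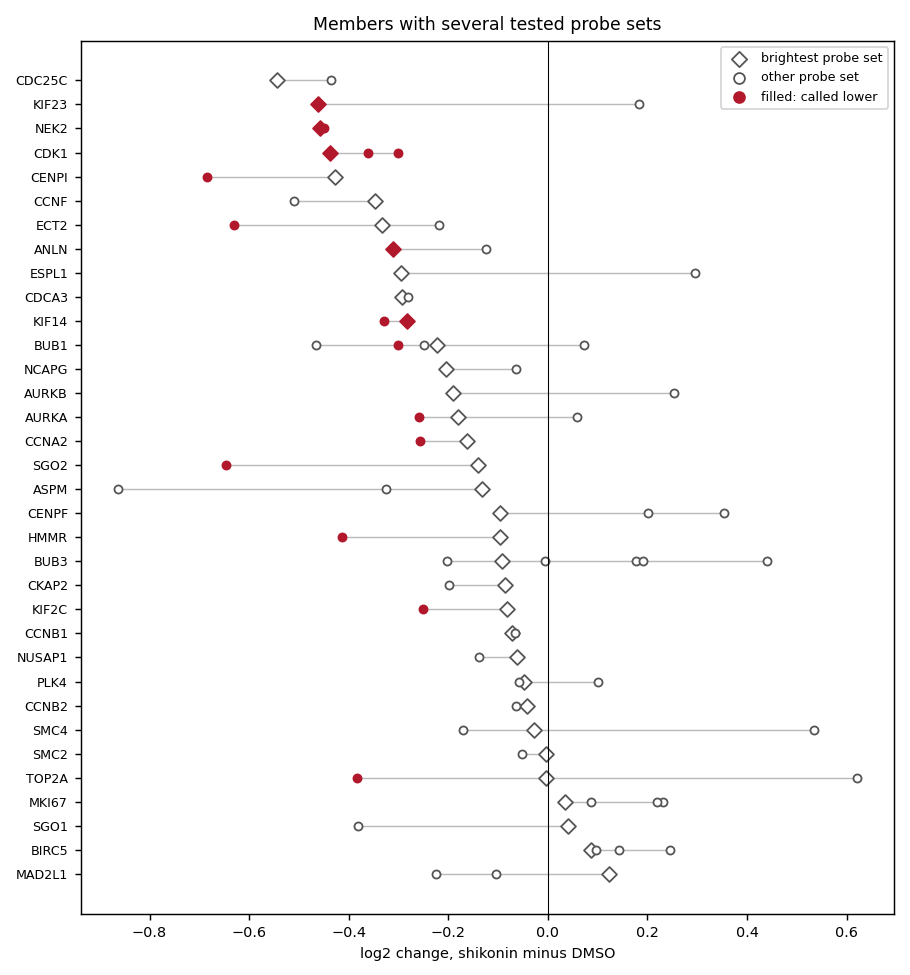
Rows are the 34 genes with several tested probe sets, and points their log2 changes (shikonin minus DMSO), with diamonds for the brightest probe set and red fill for those called lower. CDK1, NEK2 and KIF14 have all their points filled, while TOP2A, SGO2 and HMMR pair an open diamond nearer to 0 with a filled circle to its left.

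Genes of mitosis and its regulation outside the 60 (other mitosis genes below), taken from 6 further lists, had a median near 0. The lists include brakes and transcription regulators. By list, medians ran from -0.052 for other spindle and cytokinesis genes to 0.068 for the anaphase-promoting complex and its partners. Of 126 tested, 10 fell and 6 rose (7.94% and 4.76%), near the 6.68% and 5.05% of all genes tested. The median of the 126 was 0.0010, beside 0.0033 for all genes. At an unadjusted p under 0.05 (limma), 32 were lower and 16 higher, against 14.7% lower and 13.4% higher among all genes tested. Both shikonin arrays lay below both DMSO arrays in 34.9% and above them in 31.0%, against 27.3% and 28.2% of all genes. Among other spindle and cytokinesis genes, 4 of 28 fell (14.3%, against 6.68% of all genes tested) and none rose. At an unadjusted p under 0.05, 10 of the 28 were lower and 2 higher. The 4 were DEPDC1, a mitotic regulator (-0.66), CKAP2L, a spindle protein (-0.58), PIMREG (-0.47) and the kinase PBK (-0.27). Of 33 other kinetochore and centromere genes, 2 fell and 2 rose (6.06% each, against 6.68% and 5.05% of all genes tested). At an unadjusted p under 0.05, 9 of the 33 were lower and 2 higher. CENPC, which anchors the kinetochore to CENPA, fell by 0.71, and SKA1, a microtubule coupler, fell by 0.37. CENPO (0.57), of the inner kinetochore, and MIS12 (0.32), of its link to the NDC80 complex, rose. Of 17 cohesin and other condensin genes, 2 fell (11.8%, against 6.68% of all genes tested) and none rose. They were STAG2, a cohesin subunit (-0.39), and NCAPG2, of condensin II (-0.39). None of 17 genes of the anaphase-promoting complex and its partners was called by limma. At an unadjusted p under 0.05, 1 was lower and 3 higher, against 14.7% and 13.4% of all genes tested. The nearest to a call were ANAPC4 (-0.22, adjusted p = 0.0613) and ANAPC5 (0.18, adjusted p = 0.0652). Single arrays decided several of these calls: PBK was lost without DMSO 1, DMSO 2, shikonin 1 or shikonin 2 (adjusted p 0.113, 0.0554, 0.077 and 0.125), SKA1 without DMSO 1, DMSO 2, shikonin 1 or shikonin 2 (adjusted p 0.1, 0.135, 0.0597 and 0.172), and MIS12 without DMSO 1, DMSO 2, shikonin 1 or shikonin 2 (adjusted p 0.0837, 0.102, 0.125 and 0.0967). PIMREG was lost without DMSO 2 or shikonin 2 (adjusted p 0.208 and 0.171), CENPO without shikonin 2 (adjusted p 0.0744), and DEPDC1 without DMSO 1 (adjusted p 0.0606).

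Of 16 brakes and regulators of mitotic entry, 3 rose and 2 fell, where 5.05% of all genes tested rose and 6.68% fell. GADD45A, a stress gene that can hold cells in G2, rose by 0.86 (SE 0.16, adjusted p = 0.0135), a call that was gone without shikonin 1 (adjusted p 0.0703). CDC25A, the phosphatase that acts on CDKs from G1/S onward, rose by 0.44 (adjusted p = 0.00573). PPP2R2D, a PP2A subunit that opposes mitotic entry, fell by 0.71 (adjusted p = 0.00433), but the mean over its probe sets was -0.44 (adjusted p = 0.152). LATS2, a Hippo pathway kinase, fell by 0.40 (adjusted p = 0.0297) and was not called without DMSO 1, DMSO 2 or shikonin 1 (adjusted p 0.0547, 0.121 and 0.125). MASTL, the Greatwall kinase that shuts off PP2A in mitosis, was the third to rise, by 0.58 (adjusted p = 0.0483). It was chosen after its values were seen, to complete the count, and was not called without DMSO 1, DMSO 2 or shikonin 1 (adjusted p 0.0737, 0.148 and 0.232). Of 15 genes for the DREAM, MuvB and NF-Y complexes that bind the CHR and the CCAAT box, 1 rose (6.67%, against 5.05% of all genes tested). It was RBL1, the p107 repressor, which rose by 0.45 (adjusted p = 0.0403). The call was lost with any 1 array left out (adjusted p 0.0588 to 0.148), and none fell.

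Genes of G1/S and DNA replication, the preceding phase of the cycle, lay on the opposite side of 0. Of 59 tested, 12 rose and 1 fell (20.3% and 1.69%, against 5.05% and 6.68% of all genes tested), with a median of 0.16, and 10 of 59 were below 0, against 53 of 60 mitotic genes. CCNE2, cyclin E2, had signals of 1048 and 935 in DMSO and 1782 and 1874 after shikonin, 1.84-fold higher (log2 change 0.88, adjusted p = 0.000504). CDC6 and MCM10, which load and activate replication origins, rose by 0.71 and 0.64 (MCM10 was at 0.33, adjusted p = 0.28, on a probe set not ending in _s_at or _x_at), and GMNN, geminin, which blocks a second loading, by 0.37 (adjusted p 0.00126, 0.00311 and 0.00429). RFC4, a clamp loader subunit named after its values were seen, was the one that fell, by 0.26 (adjusted p = 0.0335), and the call was lost with any 1 array left out (adjusted p 0.0856 to 0.128). These lists share their arrays, and the difference between them was described and not tested.

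**Figure D5:**
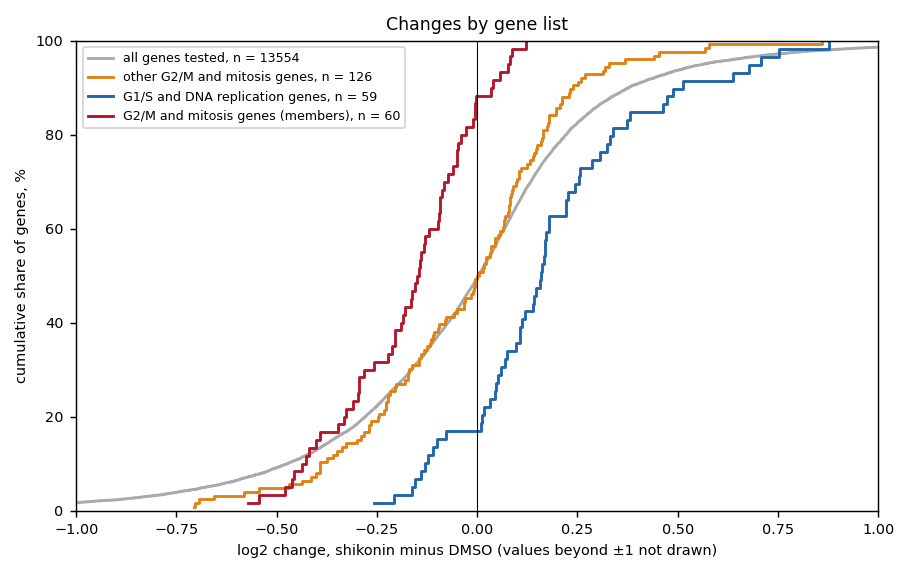
Curves give the cumulative percentage of genes at or below each log2 change (shikonin minus DMSO) for the 60 mitotic genes (red), 126 other G2/M and mitosis genes (orange), 59 G1/S and replication genes (blue) and all 13554 genes tested (grey). At 0 the red curve has reached 88.3% and the blue one 16.9%, while the orange curve runs near the grey one.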

How the data were processed

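Total RNA of 4 U937 samples was copied into cDNA and biotin-labelled cRNA with Affymetrix kits for 3' amplification, per the labels' protocols. The authors' deposited values are linear intensities per probe set. How probes were summarised is not stated in the sources used here. A mean after trimming 2% at each end was 500.1 on every array, which makes every change one relative to the other probe sets. The number of arrays limits the precision, and detection calls were not used here.

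Groups came from the sample titles. Of 54675 probe sets, 41097 had 1 gene symbol in the platform annotation, 1801 several and 11777 none; 41043 matched the RefSeq gene table (GRCh38.p14) by gene ID. Intensities were turned into log2(signal + 9.94), the pseudocount being the 20th percentile of all values, which understates changes of dim genes. The array medians lay within 0.066 (log2), so no normalization was added. After removal of controls and of the dimmest 40% (by mean log2 value), probe sets numbered 32768. Two-sided tests used lmFit and eBayes of limma 3.58.1 (R 4.3.3), the prior variance following signal (2 residual and 7.10 prior degrees of freedom), adjusted by Benjamini-Hochberg over all kept probe sets, with a threshold of 0.05. The procedure was tested on simulated data.

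The members, lists and classes were chosen with earlier results of these data known. The rule for named genes took each called member, 2 members with the smallest p in a class without calls, and up to 4 called genes of each other list (2 where none was called); it named 38 genes. Other members are named for their role, after their values were seen. Alternatives covered the pseudocount, filter, normalization, variance model, probe sets, replicate block and each array left out; filtering by mean signal was added after seeing the data. Promoter windows came from RefSeq.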

Additional observations from a re-analysis of the deposited data

How the results depend on the processing

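The 60 genes kept a negative median under each alternative run (-0.17 to -0.14; -0.17 to -0.14 with 1 array left out), and none of them was called higher in any. With 1 array left out, 7 to 11 of the 60 were called lower, and of these 7 to 10 were among the 13. CDK1, CENPE, KIF23, NDC80, NEK2 and PRC1 were called in each such fit. In the same fits, called other mitosis genes numbered 7 to 9 lower and 2 to 3 higher, and G1/S genes 7 to 8 higher and 0 to 0 lower. Without a filter on dim probe sets, which adds tests, 8 of the 60 were called lower, 6 other mitosis genes lower and 3 higher, and 7 G1/S genes higher and 0 lower. A single variance prior called 0 genes in all of these lists. Leaving out _x_at and _s_at probe sets, which removed every probe set of some genes, gave 7 of 46 called lower, 5 other mitosis genes lower and 7 G1/S genes higher. With the lowest 60% left out, 17 other mitosis genes were called lower.

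Same-numbered arrays of the groups did not deviate together (correlation 0.022 over 32768 probe sets), so the signals show no pairing by number. That cannot show how the samples were made, which is not stated. With the replicate block limma called 22 of the 60 lower, 21 other mitosis genes lower and 12 higher, and 25 G1/S genes higher.

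Some log2 changes turned in sign. In the fit without _x_at and _s_at probe sets these were AURKA 0.058, BUB3 0.19, CENPF 0.35, KIF23 0.18 and MAD2L1 -0.10, where KIF23 lost its called probe set. With means over probe sets they were AURKB 0.032, BUB3 0.084, CENPF 0.15, ESPL1 0.00075, MAD2L1 -0.069, SGO1 -0.17, SMC4 0.11 and TOP2A 0.078, and with quantile normalization CKS2 -0.0060, KIF11 0.013, KIF20B 0.024 and SMC2 0.012. With 1 array left out, values ran over 0 for CCNB2 -0.086 to 0.0038, FOXM1 -0.037 to 0.15, HMMR -0.19 to 0.0015, INCENP -0.36 to 0.18, KIF11 -0.044 to 0.024, KIF20B -0.14 to 0.14, MKI67 -0.016 to 0.086, NCAPH -0.32 to 0.017, PLK4 -0.16 to 0.059, SGO1 -0.033 to 0.11, SMC2 -0.037 to 0.028, SMC4 -0.067 to 0.013, SPAG5 -0.15 to 0.052 and TOP2A -0.051 to 0.045. The cause was not tested.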
